A study of Mus musculus with 36 samples.

Results

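Trem2, Tyrobp and 8 further genes of plaque-associated microglia were followed through the brains of APP/PS1 mice and wild-type (WT) mice at 6 and 9 months of age. The 10 genes were Trem2, Tyrobp, Itgax, Clec7a, Axl, Cd9, Lpl, Spp1, Csf1 and Ccl6. They were chosen by symbol from the 22051 gene symbols of the deposited mRNA table, and all 10 were present. APP/PS1 mice carry the APP695swe and PS1-dE9 transgenes, and both genotypes were labelled as C57BL/6. The libraries compared were 3 of APP/PS1 at 6 months, 3 of APP/PS1 at 9 months, 3 of WT at 6 months and 3 of WT at 9 months, 12 of the 36 samples of the series. The labels give no sex, brain region or number of animals per library, and the promoter that drives the transgenes is not given there. The labels do not say whether each library is from its own animal, so every p-value below measures the spread between these libraries, which may be technical. Values are FPKM, fragments scaled to transcript length and library depth, summed over the transcripts of a gene.

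Trem2 is a receptor on the surface of microglia, the resident macrophages of the brain, that binds lipids, lipoproteins and amyloid. It has no signalling tail of its own and pairs with the adaptor Tyrobp (DAP12), whose phosphorylated tail recruits the kinase Syk. Through this pair microglia are known to gather around amyloid plaques and to take on a state marked by Itgax, Clec7a, Axl, Cd9, Lpl, Spp1, Csf1 and Ccl6, while genes of resting, homeostatic microglia are turned down. In the mouse this late stage of activation depends on Trem2.

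The extraction text names retina while the tissue label is brain, and forebrain genes were high while photoreceptor genes were low. The neuronal gene Snap25 lay between 785 and 871 FPKM, Camk2a between 315 and 374 and Neurod6 between 20.9 and 29.6, whereas the photoreceptor genes Pde6b, Crx, Opn1sw and Guca1a stayed at or below 0.187 FPKM and Sag at or below 0.702. App lay between 970 and 1029 FPKM in the 6 APP/PS1 libraries and between 433 and 453 FPKM in the 6 WT libraries, so every library matched its genotype label. The number of reads per library is unknown, but the value of a single read in low genes showed that the deepest library had 1.89 times the reads of the shallowest. Choroid plexus genes, a sign of how the brain was dissected, differed between libraries: their summed level was 101 to 336 FPKM in APP/PS1 and 6.45 to 298 FPKM in WT at 6 months, and 78.7 to 300.2 FPKM in APP/PS1 and 314 to 358 FPKM in WT at 9 months. Striatal neuron genes were lower in APP/PS1 in 8 of 8 tested at 6 months and higher in 8 of 8 tested at 9 months. In whole tissue, fewer cells of a type and less RNA per cell cannot be told apart.

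The bases just before the start of the gene are shown for 5 of the genes, because the microglial factor PU.1 and related ETS factors can bind GGAAGT and many genes of this cell type carry it. RefSeq (GRCm38.p6) gave such a window for 8 of the 10 genes, and none for Tyrobp and Lpl. The 250 bases before the start are printed 5′ to 3′ in the direction of the gene, with each GGAAGT, or ACTTCC where it lies on the other strand, in capitals. They lie at chr17:48346151-48346400, plus strand (Trem2), chr7:128129300-128129549, plus strand (Itgax), chr6:129472780-129473029, minus strand (Clec7a), chr11:83593088-83593337, minus strand (Ccl6) and chr5:104434861-104435110, plus strand (Spp1).

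Trem2 upstream: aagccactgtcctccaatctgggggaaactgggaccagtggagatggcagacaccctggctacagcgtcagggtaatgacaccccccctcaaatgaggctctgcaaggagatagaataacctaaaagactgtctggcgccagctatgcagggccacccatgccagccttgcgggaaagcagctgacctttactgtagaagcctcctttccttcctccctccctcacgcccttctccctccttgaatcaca

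Itgax upstream: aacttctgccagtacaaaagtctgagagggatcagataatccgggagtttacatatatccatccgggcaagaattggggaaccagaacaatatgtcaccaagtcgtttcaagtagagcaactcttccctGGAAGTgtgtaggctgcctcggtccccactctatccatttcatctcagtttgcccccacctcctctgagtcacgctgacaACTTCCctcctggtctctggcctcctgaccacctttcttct

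Clec7a upstream: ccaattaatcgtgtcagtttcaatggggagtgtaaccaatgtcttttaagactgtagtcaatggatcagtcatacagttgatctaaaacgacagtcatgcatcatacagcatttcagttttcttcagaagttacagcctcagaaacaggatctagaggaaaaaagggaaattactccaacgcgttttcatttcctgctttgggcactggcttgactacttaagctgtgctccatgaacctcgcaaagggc

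Ccl6 upstream: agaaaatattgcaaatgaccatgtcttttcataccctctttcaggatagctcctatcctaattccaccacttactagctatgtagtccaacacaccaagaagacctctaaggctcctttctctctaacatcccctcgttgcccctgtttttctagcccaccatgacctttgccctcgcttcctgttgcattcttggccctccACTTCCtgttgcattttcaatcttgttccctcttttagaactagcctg

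Spp1 upstream: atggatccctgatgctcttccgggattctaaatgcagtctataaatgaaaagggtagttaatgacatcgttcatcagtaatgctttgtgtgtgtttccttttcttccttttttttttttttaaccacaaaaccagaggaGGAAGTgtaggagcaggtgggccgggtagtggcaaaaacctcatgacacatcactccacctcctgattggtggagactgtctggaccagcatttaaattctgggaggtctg

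Itgax held GGAAGT at 2 places, and Ccl6 and Spp1 at 1 place each. GGAAGT was found on either strand in 3 of the 10 windows of the 8 matched genes. It was found in 19.7% of all 32851 promoter windows of the same length. Spp1 and Clec7a each have a second window, not printed here, that does not hold it. The windows of Axl, Cd9 and Csf1, also not printed, do not hold it either. The AP-1 motif TGAGTCA, held by 4.46% of windows, was found in Itgax. An interferon-response motif, held by 2.98%, was found in Spp1. The E-box CACGTG, held by 6.02%, was in none of the 8. These matches are of letters in a window and say nothing of binding in these brains.

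The receptor and its adaptor were higher in APP/PS1 brain, and the gap was wider at 9 months. Trem2 had 8.92, 7.82 and 8.95 FPKM in the APP/PS1 libraries of 6 months, against 7.78, 5.40 and 6.69 FPKM in the WT libraries. The groups did not overlap, but the lowest APP/PS1 library and the highest WT library were only just apart. At 9 months Trem2 had 11.6, 13.6 and 12.7 FPKM in APP/PS1, against 5.41, 6.14 and 6.40 FPKM in WT. Every APP/PS1 library of 9 months thus lay well above every WT library of either age. Trem2 averaged 12.6 ± 1.03 FPKM in APP/PS1 and 5.98 ± 0.517 FPKM in WT at 9 months (SD, n = 3 each). The log2 change of FPKM plus 0.25 was 1.05 (SE 0.12), with an adjusted p of 0.00627 in limma after Benjamini-Hochberg adjustment over 13546 genes. At 6 months it was 0.37 (SE 0.12, limma adjusted p = 0.289), which did not pass the threshold of 0.05. That value was 0.24 without WT library 2 (limma adjusted p = 0.566) and 0.62 with the choroid plexus and striatal levels as covariates (limma adjusted p = 0.989). Over both ages Trem2 rose by 0.71 on the log2 scale (SE 0.08, limma adjusted p = 0.00746). With the choroid plexus and striatal levels as covariates, the 9-month change was 0.90 (limma adjusted p = 0.0865), and the call was lost.

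Tyrobp, the adaptor, was the more abundant of the pair in every library. It had 17.1, 14.7 and 16.5 FPKM in APP/PS1 at 6 months, against 13.1, 8.13 and 10.8 FPKM in WT. At 9 months it had 22.2, 25.8 and 19.8 FPKM in APP/PS1, against 10.1, 11.9 and 12.7 FPKM in WT. The groups were apart at both ages. Over both ages Tyrobp rose by 0.78 on the log2 scale (SE 0.11, limma adjusted p = 0.0285). Neither age passed alone: the log2 change was 0.61 at 6 months (SE 0.15, limma adjusted p = 0.188) and 0.95 at 9 months (SE 0.15, limma adjusted p = 0.0606). With 1 library taken away at a time, the call over both ages held in 4 of 12 fits. It was lost without any of the APP/PS1 libraries of 6 months (adjusted p = 0.0599, 0.0535 and 0.0624 without libraries 1, 2 and 3), and without WT library 3 of 6 months (0.0679). At 9 months it was lost without APP/PS1 library 1 or 2 (0.0752 and 0.0697) and without WT library 1 or 2 (0.0754 and 0.0651). A fit without the trend of spread on level gave an adjusted p of 0.0521.

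Itgax encodes CD11c, an integrin chain that resting microglia hardly make, and Clec7a encodes Dectin-1, a receptor for fungal glucans that also signals through Syk. Both were low in WT brain, at or below 0.201 FPKM, and higher in all APP/PS1 libraries than in the WT libraries of the same age. Itgax had 0.363, 0.444 and 0.593 FPKM in APP/PS1 at 6 months, against 0.136, 0.117 and 0.201 FPKM in WT. At 9 months it had 0.7995, 1.08 and 1.03 FPKM in APP/PS1, against 0.0524, 0.0326 and 0.0309 FPKM in WT. The groups did not overlap at either age. Clec7a had 0.239, 0.548 and 0.455 FPKM in APP/PS1 at 6 months, against 0.0690, 0 and 0.0240 FPKM in WT. At 9 months it had 0.638, 0.978 and 0.450 FPKM in APP/PS1, against 0.0350, 0 and 0.124 FPKM in WT. The lowest APP/PS1 library of each age lay above the highest WT library.

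These 2 genes had means over the 12 libraries of 0.406 and 0.297 FPKM, under the filter of 0.5 FPKM, so 8 of the 10 genes entered the main test. Without the filter, over 18598 genes, Itgax rose by 2.07 on the log2 scale at 9 months (SE 0.13, limma adjusted p = 6.76e-05) and by 1.45 over both ages (SE 0.09, limma adjusted p = 7.46e-05). Its change of 0.83 at 6 months did not pass (limma adjusted p = 0.0898; 0.0269% of genes called). Clec7a passed over both ages, with a log2 change of 1.42 (SE 0.17, limma adjusted p = 0.0123), and was at 1.61 at 9 months (SE 0.24, limma adjusted p = 0.0527) and 1.22 at 6 months (SE 0.24, limma adjusted p = 0.141). Its call over both ages was lost without APP/PS1 library 3 of 6 months (limma adjusted p = 0.0582), WT library 2 of 6 months (0.0572) or WT library 1 of 9 months (0.0750), and with the choroid plexus and striatal covariates (log2 1.43, limma adjusted p = 0.0968). Log2 changes of genes this low depend on the added 0.25: for Itgax at 9 months the change was 0.92 with 1 FPKM and 2.94 with 0.1 FPKM, and it passed under both.

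**Figure D1:**
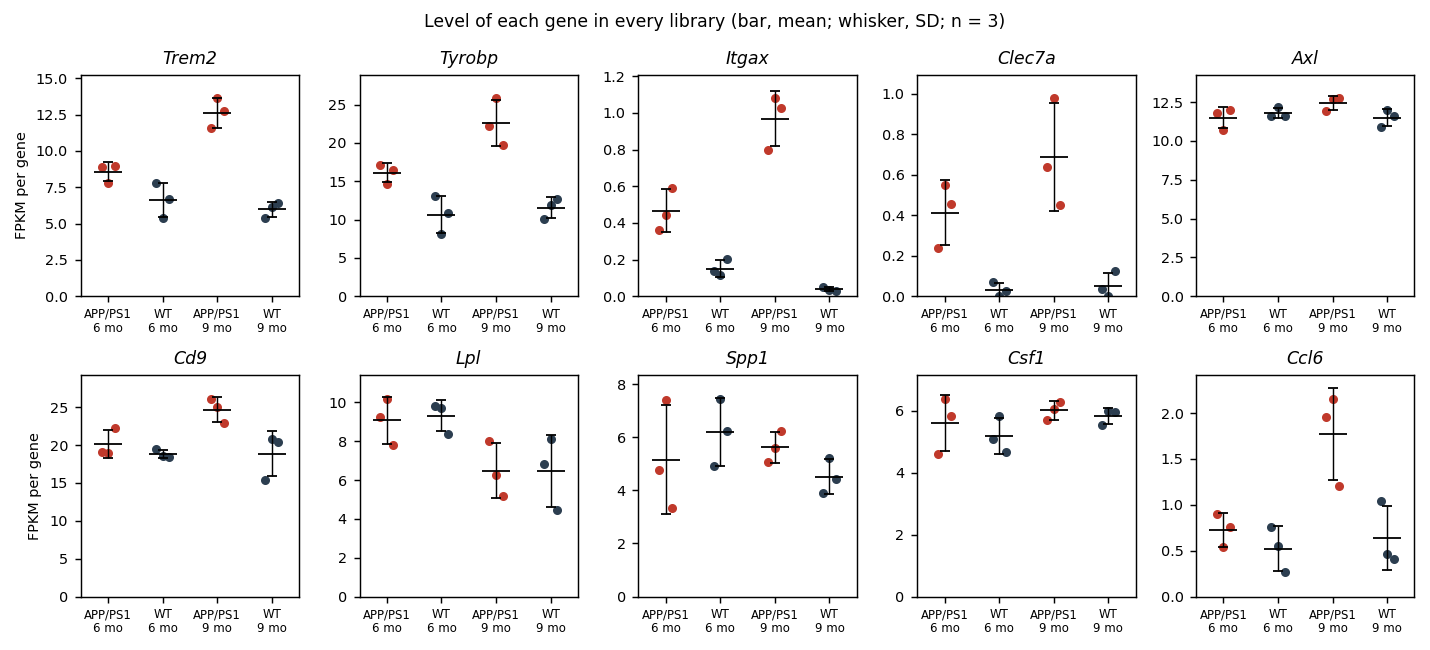
FPKM of each of the 10 genes (y axis, linear from 0) in every library of APP/PS1 (red) and WT (dark) at 6 and 9 months; the bar is the mean and the whisker the SD of 3 libraries. Trem2, Tyrobp, Itgax and Clec7a lie higher in all APP/PS1 libraries than in the WT libraries of the same age, while Axl, Lpl, Spp1 and Csf1 overlap at both.

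Ccl6 is a chemokine of rodents made by myeloid cells, and Cd9 is a tetraspanin of the cell surface that oligodendrocytes and other brain cells make too. Both were apart between genotypes at 9 months only, and neither passed the test. Ccl6 had 1.96, 2.16 and 1.21 FPKM in APP/PS1 at 9 months, against 1.04, 0.461 and 0.413 FPKM in WT, a log2 change of 1.22 (SE 0.31, limma adjusted p = 0.251). At 6 months it had 0.903, 0.535 and 0.753 FPKM in APP/PS1, against 0.753, 0.552 and 0.265 FPKM in WT, and the groups overlapped. Cd9 had 26.2, 25 and 22.9 FPKM in APP/PS1 at 9 months, against 15.4, 20.8 and 20.4 FPKM in WT, a log2 change of 0.39 (SE 0.11, limma adjusted p = 0.268). WT library 1 was the low one there, and without it the change was 0.26 (limma adjusted p = 0.534). Oligodendrocyte genes were higher in APP/PS1 in 10 of 10 at 9 months (median log2 0.14, 0 called), and their summed level, 858 to 919 FPKM in APP/PS1 and 715 to 897 FPKM in WT, was lowest in that same WT library. Their part in the Cd9 values was not tested. At 6 months Cd9 had 19.2, 19.0 and 22.2 FPKM in APP/PS1, against 19.5, 18.5 and 18.5 FPKM in WT, again with overlap.

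The other 4 genes overlapped between genotypes at both ages. Axl, a receptor of the TAM family that takes part in clearing dying cells, was the steadiest of the 10, with 10.7 to 12.7 FPKM in the 6 APP/PS1 libraries and 10.9 to 12.2 FPKM in the 6 WT libraries. Its 95% interval at 9 months ran from -0.01 to 0.24 on the log2 scale around a change of 0.11. Csf1, a growth factor for microglia, had 4.60 to 6.39 FPKM in APP/PS1 and 4.67 to 5.98 FPKM in WT. Its change at 9 months was 0.04, with an interval from -0.20 to 0.29. These intervals leave out a change of the size seen for Trem2, but not a smaller one.

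Lpl, the lipase that frees fatty acids from lipoproteins, had means that lay further apart between ages than between genotypes. It averaged 6.49 ± 1.43 FPKM at 9 months and 9.08 ± 1.21 FPKM at 6 months in APP/PS1 brain, and 6.48 ± 1.86 FPKM at 9 months and 9.32 ± 0.807 FPKM at 6 months in WT brain (SD, n = 3 each). The change with age was -0.48 in APP/PS1 (limma adjusted p = 0.343) and -0.54 in WT (limma adjusted p = 0.399), so neither passed. The genotype change at 9 months was 0.02, with an interval from -0.42 to 0.47. Spp1, which encodes osteopontin, a secreted ligand of integrins and CD44, had 4.77, 7.38 and 3.32 FPKM in APP/PS1 at 6 months, against 4.90, 7.45 and 6.24 FPKM in WT. At 9 months it had 5.08, 5.58 and 6.24 FPKM in APP/PS1, against 3.90, 5.20 and 4.41 FPKM in WT. Its log2 change was -0.31 at 6 months (limma adjusted p = 0.65) and 0.31 at 9 months (limma adjusted p = 0.732), and the intervals, from -0.83 to 0.22 and from -0.21 to 0.83, were wide. The 6-month change was -0.59 without APP/PS1 library 2, -0.04 without APP/PS1 library 3 and -0.17 without WT library 2.

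**Figure D2:**
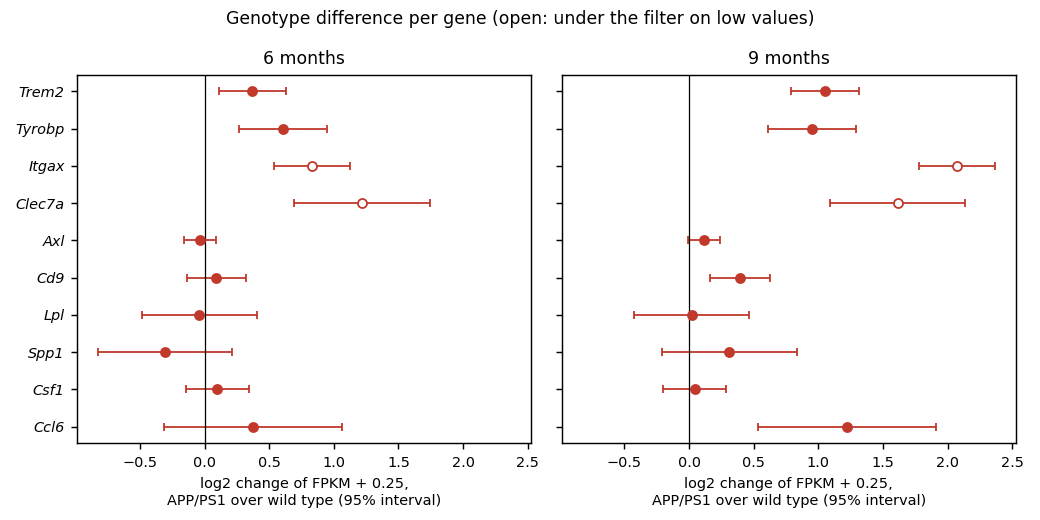
Log2 change of FPKM + 0.25, APP/PS1 over WT, with its 95% interval (x axis) for each gene (y axis) at 6 months (left) and 9 months (right); open circles are Itgax and Clec7a, from the fit without the filter. Trem2 is at 0.37 and 1.05 and Itgax at 0.83 and 2.07, while Lpl and Csf1 sit near 0 at both ages.

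Set against all genes, calls among these genes were few but so were calls anywhere. At 9 months 1 of the 8 tested genes, Trem2, passed, beside 13 of 13546 genes, or 0.096%. Over both ages 2 of 8 passed, Trem2 and Tyrobp, beside 0.118% of all genes. At 6 months none of the 8 passed with limma, beside 0.0443% of all genes, and 2 of them, Trem2 and Tyrobp, had an unadjusted p under 0.05, as did 1593 of all 13546 genes. Without the filter 2 of 10 passed at 9 months, Trem2 and Itgax, beside 0.0484% of genes, and 4 of 10 over both ages, beside 0.0914%. Having all 3 APP/PS1 libraries above all 3 WT libraries of the same age is a far more common pattern: it held for 6.7% of tested genes at 6 months and 9.29% at 9 months. Among the 8 tested genes it held for Trem2 and Tyrobp at 6 months, and for these 2, Cd9 and Ccl6 at 9 months. At both ages it held for 0.657% of tested genes and for Trem2 and Tyrobp among the 8. Without the filter it held for 0.634% of genes and for Itgax and Clec7a besides. The 10 genes were chosen with earlier results of these data known, so these shares cannot show that calls gather among them.

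Age was tested within each genotype, and so was whether the genotype difference changed with age. No gene of the 8 passed in any of these tests. Between 9 and 6 months in APP/PS1, limma called 0 of 13546 genes (0%), although 1785 had an unadjusted p under 0.05. Trem2 averaged 12.6 ± 1.03 FPKM at 9 months and 8.56 ± 0.643 FPKM at 6 months in APP/PS1 (SD, n = 3 each), a log2 change of 0.55 (SE 0.12, limma adjusted p = 0.136). In WT its change with age was -0.13 (SE 0.12, limma adjusted p = 0.735), in a comparison that called 0.0443% of genes. The difference between the genotype effects of 9 and 6 months was 0.68 for Trem2 (SE 0.17, limma adjusted p = 0.224), 0.34 for Tyrobp (SE 0.22, adjusted p = 0.591) and 0.85 for Ccl6 (SE 0.44, adjusted p = 0.504), where 0.00738% of all genes were called. For Itgax, without the filter, it was 1.24 (SE 0.19, limma adjusted p = 0.165), beside 0.00538% of genes. Both genotypes entered that value: Itgax changed with age by 0.77 in APP/PS1 (limma adjusted p = 0.117) and by -0.47 in WT (limma adjusted p = 0.341). The wider gap at 9 months is therefore a difference in these means that was not called as a change of the genotype effect.

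Trem2 is listed as 2 transcripts, and the larger difference lay in one of them. ENSMUST00000024791 had 5.16, 4.13 and 4.54 FPKM in APP/PS1 at 6 months, against 3.95, 3.13 and 3.23 FPKM in WT. At 9 months it had 8.28, 8.47 and 8.69 FPKM in APP/PS1, against 3.19, 3.73 and 3.92 FPKM in WT. The 3 APP/PS1 libraries of 9 months agree closely and stand far above all others. Over 22322 transcripts tested, 13 of them of these genes, its log2 change was 1.18 at 9 months (SE 0.11, limma adjusted p = 0.00364; 0.0627% of transcripts called) and 0.79 over both ages (SE 0.08, limma adjusted p = 0.00589; 0.0896% called). It was also higher at 9 than at 6 months within APP/PS1, by 0.85 (SE 0.11, limma adjusted p = 0.0464; 0.0538% called). That last call held in 2 of 12 fits with 1 library taken away, with adjusted p-values up to 0.165, and a replicate block by library number also ended it (limma adjusted p = 0.159). It was lost without any single library other than APP/PS1 1 and WT 1 of 6 months.

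The second transcript, ENSMUST00000113237, had 3.76, 3.69 and 4.41 FPKM in APP/PS1 at 6 months, against 3.84, 2.27 and 3.47 FPKM in WT. At 9 months it had 3.28, 5.15 and 4.04 FPKM in APP/PS1, against 2.22, 2.41 and 2.48 FPKM in WT. Its log2 change at 9 months was 0.73 (SE 0.20, limma adjusted p = 0.47), which did not pass. The difference between the 2 transcripts was not tested. ENSMUST00000024791 made up 71.6%, 62.2% and 68.3% of Trem2 in APP/PS1 at 9 months, against 59.0%, 60.8% and 61.3% in WT. At 6 months it made up 57.9%, 52.8% and 50.7% in APP/PS1, against 50.7%, 58.0% and 48.2% in WT. The share was highest in APP/PS1 at 9 months. The genotypes did not overlap there, but 62.2% in APP/PS1 and 61.3% in WT were only just apart, and they overlapped at 6 months. In both genotypes every library of 9 months had a larger share than every library of 6 months. These shares were not tested.

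**Figure D3:**
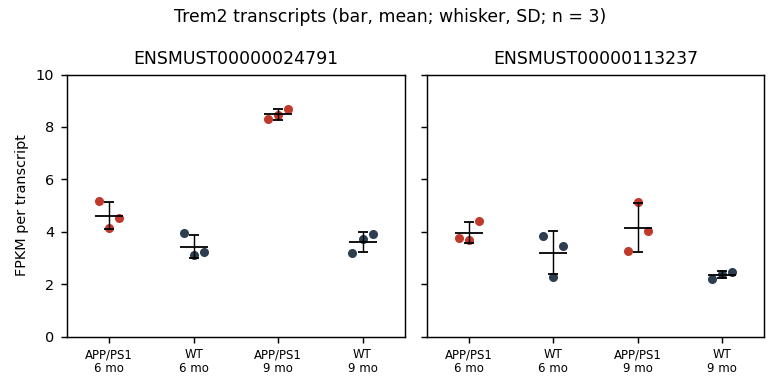
FPKM (y axis, linear from 0) of the 2 listed Trem2 transcripts in every library of APP/PS1 (red) and WT (dark) at 6 and 9 months, with the mean and SD of 3 libraries. ENSMUST00000024791 sits between 8.28 and 8.69 FPKM in APP/PS1 at 9 months, above the 5.16 FPKM that is the highest value of any other group.

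Spp1 and Csf1 showed how far transcript values can be trusted. The Spp1 transcript ENSMUST00000031243 took 91.0%, 21.8% and 89.1% of the gene in the 3 APP/PS1 libraries of 9 months, against 25%, 17.5% and 30.4% in WT. For Csf1, ENSMUST00000014743 took from 41.8% to 94.95% over the 12 libraries. Shares that swing this widely inside a group leave no transcript difference to report for these genes, and none of their transcripts passed. Tyrobp, Itgax, Clec7a, Cd9, Lpl and Ccl6 are listed as 1 transcript each, and Axl was mainly ENSMUST00000002677, at 86.5% to 91.3%.

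In order of level, Cd9 came first in APP/PS1 brain of 9 months with 24.7 ± 1.66 FPKM, next to Tyrobp with 22.6 ± 3.04 FPKM, and these 2 overlapped (SD, n = 3). Trem2 with 12.6 ± 1.03 FPKM and Axl with 12.5 ± 0.460 FPKM followed and overlapped too. Lpl, Csf1 and Spp1 lay at 6.49, 6.01 and 5.63 FPKM with overlapping libraries, and then came Ccl6 at 1.78, Itgax at 0.969 and Clec7a at 0.689 FPKM, of which the last 2 overlapped. In WT brain of 9 months Cd9 led with 18.9 ± 2.99 FPKM, and Tyrobp at 11.6 and Axl at 11.5 FPKM overlapped. Trem2 at 5.98 FPKM then lay among Lpl at 6.48 and Csf1 at 5.83 FPKM, with overlap. Clec7a and Itgax closed the order at 0.0530 and 0.0386 FPKM. Trem2 was thus at place 3 of 10 in APP/PS1 and at place 5 in WT.

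Most genes of homeostatic microglia were also somewhat higher in APP/PS1, though none passed. At 9 months all 14 of 14 homeostatic genes tested had a higher mean in APP/PS1, with a median log2 change of 0.19 against 0.01 over all genes, and 0 were called. The receptor Gpr34 was at 0.66 at 9 months (limma adjusted p = 0.172). At 6 months 11 of the 14 were higher and 3 lower, with a median of 0.15 and 0 called. The summed level of the 14 genes was 318 to 351 FPKM in APP/PS1 and 290 to 318 FPKM in WT at 9 months, and 307 to 318 FPKM in APP/PS1 and 291 to 301 FPKM in WT at 6 months. Most of that sum came from Sparc and Mef2c, with means of 92.3 and 86.8 FPKM over the 12 libraries. Which cells of the brain made these transcripts was not tested. Of 11 pan-microglial and macrophage genes, 11 were higher at 9 months (median 0.46) and 11 at 6 months (median 0.24), with 0 called at either age. Cd68, a lysosomal glycoprotein, was at 0.98 at 9 months (limma adjusted p = 0.115) and Laptm5 at 0.54 (limma adjusted p = 0.123).

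Measured against the mean log2 level of the 14 homeostatic genes in the same library, Trem2 stood 0.83 higher in APP/PS1 than in WT at 9 months. Its relative level was 0.04, 0.03 and 0.24 in APP/PS1, against -0.79, -0.76 and -0.64 in WT. Tyrobp stood 0.73 higher, Itgax 1.86, Clec7a 1.40 and Ccl6 1.01, and for all 5 the groups were apart. At 6 months Tyrobp stood 0.46 higher, Itgax 0.68 and Clec7a 1.07 with the groups apart, whereas Trem2, at 0.22, and Ccl6, at 0.23, overlapped. Axl, Cd9, Lpl, Spp1 and Csf1 overlapped at both ages. Against the pan-microglial genes, the 9-month differences were smaller, at 0.58 for Trem2, 0.48 for Tyrobp and 1.61 for Itgax, and the groups were still apart. Clec7a stood 1.15 higher with the groups apart, and Ccl6 stood 0.76 higher with the groups overlapping. Axl and Csf1 stood 0.35 and 0.42 lower in APP/PS1 by that measure, also with the groups apart. Their own plain levels were not lower at 9 months, with log2 changes of 0.11 for Axl and 0.04 for Csf1. The pan-microglial genes they were set against had a median change of 0.46. These relative levels are descriptions and were not tested, and the share of all genes that were apart on these scales was not counted. On plain levels 9.29% of tested genes were higher in every APP/PS1 library at 9 months.

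**Figure D4:**
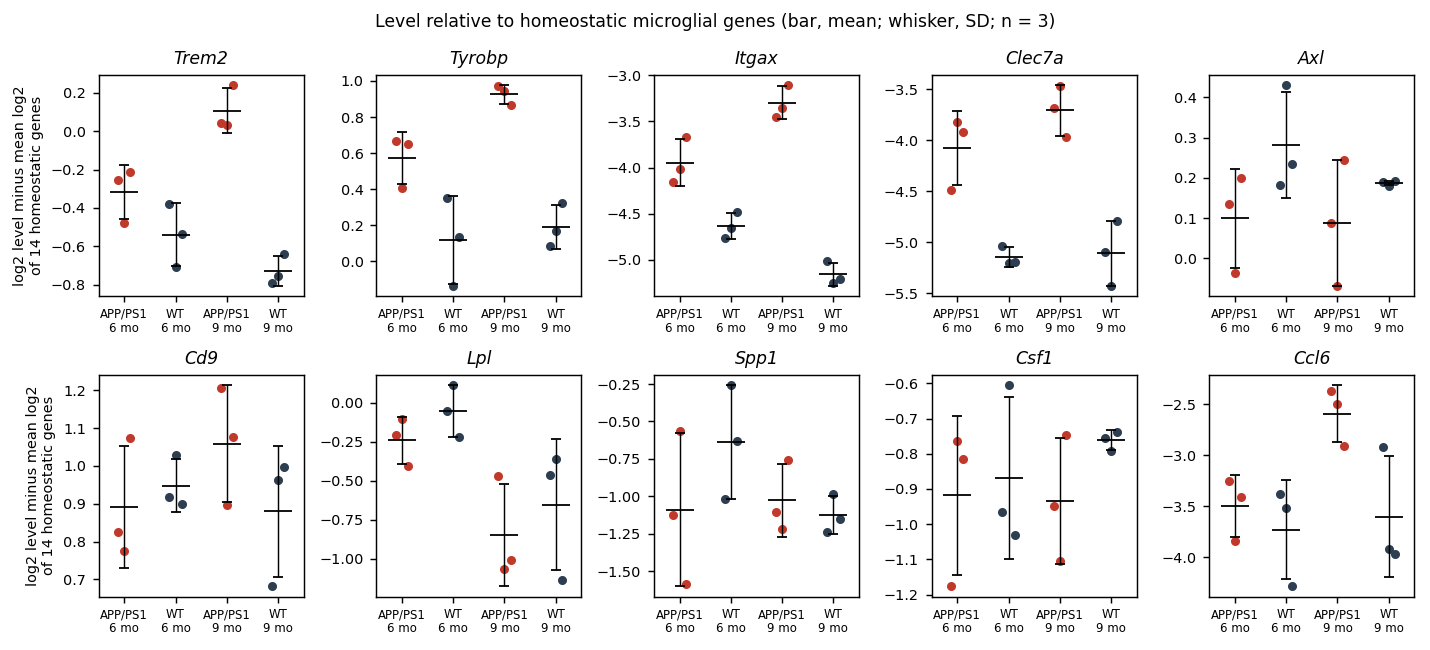
Log2 level of each gene minus the mean log2 level of 14 homeostatic microglial genes in the same library (y axis, log2 units, not from 0), for APP/PS1 (red) and WT (dark) at 6 and 9 months, with the mean and SD of 3 libraries. At 9 months Trem2, Tyrobp, Itgax, Clec7a and Ccl6 are higher in all APP/PS1 libraries, and the other 5 genes overlap.

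Markers of other myeloid cells were examined next. The summed level of 7 perivascular macrophage markers was 4.13 to 4.73 FPKM in APP/PS1 and 3.77 to 5.05 FPKM in WT at 9 months. Of these, 5 could be tested and none was called, with Cd163 at 0.36 (limma adjusted p = 0.563). For monocytes 4 of 7 markers could be tested. The summed level of all 7 was 17.0 to 21.5 FPKM in APP/PS1 and 19.1 to 21.4 FPKM in WT at 9 months, mostly Fn1 and Vcan. The defining monocyte gene Ccr2 stayed between 0.0515 and 0.133 FPKM, and Chil3 was at 0 in 5 libraries. For neutrophils 2 of 7 markers could be tested, S100a8 and S100a9, which were at -1.37 and -1.58 at 9 months without passing (limma adjusted p = 0.451 and 0.432), and Camp was at 0 in 6 libraries. Dendritic cells also make Itgax, and 3 of their 8 markers could be tested, Flt3, Zbtb46 and Siglech, of which Siglech is a microglial gene too. The summed level of all 8 was 9.68 to 11.8 FPKM in APP/PS1 and 9.20 to 10.6 FPKM in WT at 9 months. Of the 3 tested 0 were called, and Xcr1 and Clec9a were at 0 in 11 and 7 libraries. Among 10 astrocyte genes Gfap, the filament protein of reactive astrocytes, rose by 1.06 at 9 months (limma adjusted p = 0.0131). Its part in the results for the 10 genes was not tested. No gene of the neuron, oligodendrocyte, oligodendrocyte precursor, vascular or blood lists was called at either age.

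The signalling partners of the receptors did not pass as single genes. Of 20 genes of Trem2-Tyrobp signalling 17 could be tested, and 13 were higher and 4 lower in APP/PS1 at 9 months, with 0 called and a median of 0.26, against 12 higher, 5 lower, 0 called and a median of 0.06 at 6 months. Pik3cg, a catalytic chain of PI3 kinase, was at 0.53 at 9 months (limma adjusted p = 0.172), and Vav1, an exchange factor for Rac, at 0.51 (limma adjusted p = 0.263). Syk itself, the kinase shared with Clec7a, was at 0.18 (limma adjusted p = 0.634). Of 8 Clec7a signalling genes 5 were higher and 3 lower, with 0 called and a median of 0.06. Of 6 tested genes of the Csf1 axis 4 were higher with 0 called, and the receptor Csf1r was at 0.25 (limma adjusted p = 0.329).

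Partners of the other genes varied. Among 10 tested integrins and osteopontin partners 7 were higher at 9 months with 0 called, and Itgb2, the chain that pairs with Itgax, was at 0.51 (limma adjusted p = 0.123). In the tetraspanin list of Cd9, 7 of 9 were higher with 0 called. Cd37, a tetraspanin of leukocytes, had 2.88 ± 0.0330 FPKM in APP/PS1 and 1.59 ± 0.0833 FPKM in WT (SD, n = 3 each) and just missed the threshold (log2 0.77, limma adjusted p = 0.0586). Of 13 lipid-handling genes 8 were higher with 0 called, and the cholesterol exporter Abca1 was at 0.15 (limma adjusted p = 0.581). Of 7 genes of the Axl axis 2 were higher and 5 lower with 0 called. Of 11 chemokines and receptors related to Ccl6, 2 could be tested and 0 were called; the chemokine Cx3cl1 was at -0.10 (limma adjusted p = 0.639).

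Some other genes of the disease-associated state were called too. Of 34 listed genes 29 could be tested. At 6 months 24 were higher in APP/PS1 with a median of 0.08, and 1 was called, beside 0.0443% of all genes. At 9 months 24 were higher with a median of 0.17, and 4 were called, beside 0.096% of all genes. The 4 were Cst7, a protease inhibitor of activated microglia (log2 3.59, limma adjusted p = 1.29e-05), the lysosomal proteases Ctsd (0.54, adjusted p = 0.000942) and Ctsz (0.50, adjusted p = 0.0322), and Lyz2, a lysozyme of myeloid cells (0.98, adjusted p = 0.00945). On this scale the change of Trem2, 1.05 (SE 0.12), lay above those of Ctsd and Ctsz and below that of Cst7. It was close to that of Lyz2 (SE 0.12), and differences between genes were not tested. Cst7 was the gene called at 6 months (log2 2.71, limma adjusted p = 0.000258). Over both ages 3 of the 29 were called, beside 0.118% of all genes. The list was chosen with earlier results of these data known, so its share of calls is no independent support.

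Trem2 and Tyrobp were each other's nearest gene in pattern. After each gene was centred on its mean over the 12 libraries, the root mean square difference between them was 0.13 in log2 units, the smallest for either among 13545 genes. Next to Trem2 came Man2b1, a lysosomal mannosidase, at 0.20, Ctss, a lysosomal protease of microglia, at 0.20, and Klhl6 and Plek at 0.21 each. Next to Tyrobp came Irgm1, an interferon-induced GTPase, at 0.20, Cd52 and Klhl6 at 0.22 each and Mpeg1, a pore-forming protein of macrophages, at 0.23. Of these, Plek passed at 9 months (log2 0.57, SE 0.09, limma adjusted p = 0.046). Of the other tested genes of the group Cd9 was nearest to Trem2, at rank 44, and Spp1 and Lpl were far from it, at ranks 12331 and 13081. Libraries differed in depth and dissection, and all genes were measured in the same libraries, so likeness of pattern is a description and has no test.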

How the data were processed

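Long RNA from 12 brain libraries was analysed; circRNA, lncRNA and small RNA tables were not used. The authors deposited FPKM per transcript for mRNA. The submitters' processing notes name Bowtie 0.12.2 and mm8 without a role; what made the FPKM is not given in the sources used here. Library numbers came from the sample titles.

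FPKM were summed by symbol, without rescaling. The test took 13546 of 22051 symbols, those averaging 0.5 FPKM or more across the libraries, as log2(FPKM + 0.25) in limma 3.58.1 (R 4.3.3) with trend, 1 fit over 4 groups, Benjamini-Hochberg adjustment and a threshold of 0.05. A log2 change on this scale understates changes of low genes. Genes are placed and named by symbol; the ID deposited for Clec7a was not in the names table used. The script was tested on simulated data. Absolute depth is unknown, so no counting interval is given, and the precision is that of 3 libraries per group.

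The 10 genes and all gene lists were chosen with earlier results of these data known. Some genes stand in more than 1 list, such as Csf1r, Siglech and Itgam. All 10 genes are named, with list genes that were called and the 2 of smallest p at 9 months per list (for cell types, those called, plus examples), and the 5 nearest genes in pattern. A few genes that this rule names are not reported here. Alternatives were other pseudocounts, filters, scalings, weights, covariates, a replicate block, and fits without each library. Fits combining no filter with other changes, fits of transcripts without each library, and the genes for the tissue check were chosen after seeing the data.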

Additional observations from a re-analysis of the deposited data

How the results depend on the processing

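Trem2 at 9 months kept its direction under 23 of 23 alternatives and its call under 22, with log2 changes from 0.90 to 1.11; it was lost only with the choroid plexus and striatal covariates. The number of genes called among the 8 at 9 months, 1 as reported, was 2 with no filter (10 genes tested), 0 with the covariates, 2 with array weights, and 1 to 2 when a library was left out: without WT library 1 or 2 of 6 months Tyrobp passed too (limma adjusted p = 0.0257 and 0.0185). Over both ages, 2 as reported, it was 4 with no filter, 1 without a variance trend, and 1 to 2 when a library was left out. Calls over all genes, 13 at 9 months, ran from 4 to 20, at 6 months (6 reported) from 3 to 7 and up to 17 without a library, and over both ages (16 reported) from 7 to 17. Called transcripts of these genes went to 2 at 9 months and 3 over both ages with a minimum mean of 0.1 FPKM, and were 1 to 2 over both ages without a library.

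With a replicate block by library number, 1 gene was called over both ages, since Tyrobp was lost (log2 0.78, adjusted p = 0.0841), and 1 at 9 months. The rise with age of the Trem2 transcript in APP/PS1 was lost too (adjusted p = 0.159). Same-numbered libraries deviated together with correlations from -0.11 to 0.09. Libraries of different numbers were not compared in this way, so whether the numbers pair the libraries is not settled.

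Signs turned only for genes near 0 that were not called. With the covariates Cd9 was at -0.0762 and Lpl at 0.146 at 6 months, and Lpl was at -0.0753 at 9 months and 0.0354 over both ages. Lpl over both ages was 0.00913 with array weights, and Spp1 was -0.00269 with quantile normalization. Leaving out a library, Axl at 6 months ran from -0.0663 to 0.0137, Lpl from -0.127 to 0.0614 at 6 months, from -0.215 to 0.201 at 9 months and from -0.128 to 0.0799 over both ages, and Spp1 over both ages from -0.139 to 0.136. Ccl6 at 6 months, 0.38 as reported, was 0.90 with the covariates and ran from 0.11 to 0.59 without a library. Relative to pan-microglial in place of homeostatic genes at 9 months, the differences moved to 0.58 for Trem2, 0.48 for Tyrobp, 1.61 for Itgax, -0.35 for Axl, -0.0722 for Cd9, -0.15 for Spp1 and -0.42 for Csf1; Cd9 and Spp1 had been at 0.18 and 0.10. With a pseudocount of 1 FPKM Trem2 and Tyrobp were still nearest to each other in pattern. The causes were not tested. Absolute depth, unknown here, limits Itgax, Clec7a and Ccl6 most.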
